A study of Homo sapiens with 12 samples.

Results

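The 10 genes described here, SUSD2, UPK3B, BCAM, TPD52L1, RAB26, GGT5, IMPA2, CHP1, PRSS23 and C1QTNF6, lost much of their mRNA when A549/DDP cells were kept in feeding-restricted medium. They were picked by their measured values, for large falls in both groups in restricted medium, and are 10 of 60902 genes with values and of 13854 genes tested for differences. Their falls are therefore given as a description, without a test. All 10 passed the filter on low values, 1 TPM or more on average across the 12 libraries.

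A549/DDP is a cisplatin-resistant line derived from A549, a human lung adenocarcinoma line, and RNA was sequenced from 4 groups of 3 libraries. TRF+DDP cells received cisplatin (DDP), which forms platinum crosslinks in DNA, in medium that mimics time-restricted feeding, in which each 24 h cycle held 6 h of RPMI-1640 containing glucose at 2 g/L and FBS at 10% and then 18 h with neither serum nor glucose. TRF cells had the same medium without the drug. DDP cells had the drug in the normal medium, which kept both supplements throughout, and CON cells had that medium alone. Serum and glucose were withdrawn together, so their effects cannot be told apart. The study gives a DDP dose and duration beside the PCR assay that follows its sequencing and none for the sequenced libraries themselves, and does not say whether the resistant line, maintained in the drug, was freed of it before the experiment. The methods name A549 cells as the source of the RNA, while the labels name A549/DDP. The study calls its 3 replicates per group biological without saying how they were separated, and p-values measure the spread between these libraries.

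Values are TPM, a level scaled to transcript length and to all transcripts of a library, so levels can be set beside each other between genes. A fall in TPM in these bulk libraries cannot tell fewer cells of a type from less RNA per cell. How many reads a value rests on is unknown. From 13029 to 14028 genes reached 1 TPM per library, and mitochondrially encoded genes took 8.28% to 10.8% of the TPM in 11 libraries and 6.37% in TRF replicate 3. Leaving out TRF replicate 3 moved the falls of the 10 genes little, for example to a log2 difference of −4.34 for SUSD2, against −4.45 with all libraries.

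Epithelial cells line surfaces and ducts, hold to each other through cadherins and desmosomes, rest on a laminin-rich basement membrane and carry keratin filaments. Several of the 10 genes belong to the surface or the secretory route of such cells. SUSD2 is a sushi-domain membrane protein that binds galectin-1, UPK3B is a uroplakin of the urothelial and mesothelial surface, and BCAM is the Lutheran receptor for laminin alpha 5. TPD52L1 is a coiled-coil protein linked to vesicle traffic and RAB26 is a small GTPase of secretory vesicles. GGT5 is a surface enzyme that splits glutathione and leukotriene C4. IMPA2 dephosphorylates inositol monophosphate, CHP1 is a calcium-binding protein related to calcineurin B, PRSS23 is a serine protease, and C1QTNF6 is a secreted protein of the C1q and TNF family.

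The label of an epithelial group was checked against 40 epithelial identity genes. CDH1, the epithelial cadherin, averaged at most 0.350 TPM in any group and EPCAM at most 0.140 TPM. The simple-epithelial keratins KRT7, KRT8 and KRT18 were abundant, KRT18 at 756 TPM in TRF+DDP, 659 TPM in TRF, 599 TPM in DDP and 442 TPM in CON. KRT19, another of these keratins, averaged at most 0.310 TPM in any group. Of the 40 genes, 16 passed the filter on low values. Among these 16, JUP averaged 346 TPM, LLGL2 87.7 TPM, PKP3 56.5 TPM and TJP1 36.1 TPM in CON. The line thus held part of the epithelial identity genes, some keratins among them, without CDH1 and EPCAM. IMPA2, CHP1, PRSS23 and C1QTNF6 kept 13.1 to 71.4 TPM in restricted medium. The set is therefore called by its rule, genes picked for falls in restricted medium, and not silenced epithelial genes.

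The promoters of 3 members are shown because the genes behaved differently when DDP was present, UPK3B being raised by DDP in normal medium, BCAM moving little with DDP, and C1QTNF6 falling further with DDP in restricted medium. The RefSeq table for GRCh38.p14, which gives 250 bases before and 50 after a start, held windows for UPK3B, BCAM, TPD52L1, CHP1, PRSS23 and C1QTNF6. The promoters of SUSD2, RAB26, GGT5 and IMPA2 were not analysed here. Capitals mark GGGCGG (the GC box) and CCAAT on either strand, and overlapping matches run together. The windows are chr7:76510302-76510601 on the plus strand, the first of a pair of BCAM starts at chr19:44808809-44809108 on the plus strand, and chr22:37199374-37199673 on the minus strand, each written 5′ to 3′.
UPK3B: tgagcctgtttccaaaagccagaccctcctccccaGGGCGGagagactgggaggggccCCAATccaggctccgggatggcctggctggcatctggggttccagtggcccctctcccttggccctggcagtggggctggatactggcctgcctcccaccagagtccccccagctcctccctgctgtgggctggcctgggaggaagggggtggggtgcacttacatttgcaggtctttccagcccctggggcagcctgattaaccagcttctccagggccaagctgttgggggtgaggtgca
BCAM: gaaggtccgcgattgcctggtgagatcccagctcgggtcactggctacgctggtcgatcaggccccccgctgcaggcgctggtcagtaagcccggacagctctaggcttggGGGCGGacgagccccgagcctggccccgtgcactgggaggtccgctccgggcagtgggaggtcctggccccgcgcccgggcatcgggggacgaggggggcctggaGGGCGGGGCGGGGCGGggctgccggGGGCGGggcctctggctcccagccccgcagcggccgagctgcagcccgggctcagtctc
C1QTNF6: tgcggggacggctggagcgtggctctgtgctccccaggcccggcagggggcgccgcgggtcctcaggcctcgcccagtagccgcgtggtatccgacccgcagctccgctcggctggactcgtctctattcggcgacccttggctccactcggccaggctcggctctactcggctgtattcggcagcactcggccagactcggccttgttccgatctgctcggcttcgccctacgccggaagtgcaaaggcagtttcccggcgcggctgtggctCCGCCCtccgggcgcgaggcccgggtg

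The 6 genes with a promoter had 8 windows. The pair of BCAM windows overlap and hold the same GC boxes, so the 8 are not separate promoters. A GC box stood in 6 of the 8, against 45% of all 35116 promoter windows, and CCAAT in 3 of the 8, against 34.6%. By gene, a GC box stood in 5 of the 6 and CCAAT in 3. The member windows were also richer in G and C, with a median of 68.8% beside 58.7% for all. BCAM had 5 GC boxes in its window, and UPK3B and C1QTNF6 had 1 each. The TATA box (TATAAA), the E-box (CACGTG) and a FOXO motif (TGTTTAC) had no match in any of the 6 genes, where 11.5%, 7.26% and 3.42% of all promoters had one. The AP-1 motif TGANTCA was found in CHP1 alone and the TEAD motif GGAATG in TPD52L1 alone, against 7.71% and 14% of all promoters. Both strands were searched. These matches describe the letters of each window and show no binding.

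The SUSD2 gene lies on the plus strand of chromosome 22 from 24181259 to 24189110 (GENCODE v29, GRCh38) and has 15 exons in its longest transcript. SUSD2 was at 1.28, 1.80 and 1.54 TPM in TRF+DDP and at 2.05, 2.04 and 1.44 TPM in TRF. It was at 75.05, 78.64 and 78.80 TPM in DDP and at 57.00, 63.96 and 61.83 TPM in CON. Every library in restricted medium lay far below every library in normal medium. The mean was 50.3-fold lower in TRF+DDP than in DDP and 33.1-fold lower in TRF than in CON. On the log2(TPM + 1) scale these were differences of −4.95 and −4.45, and in both comparisons SUSD2 ranked 2 from the bottom of the 13854 tested genes.

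UPK3B, on chromosome 7 from 76510428 to 76516521, stood at 3.02, 2.91 and 2.68 TPM in TRF+DDP and at 2.31, 1.96 and 1.84 TPM in TRF. Its levels were 55.30, 53.89 and 59.03 TPM in DDP and 28.64, 31.84 and 29.03 TPM in CON. It was the only one of the 10 genes whose 3 TRF+DDP libraries all lay above the 3 TRF libraries. Its level in TRF+DDP was 5.12% of that in DDP, and in TRF it was 6.83% of that in CON.

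BCAM, on chromosome 19 from 44809059 to 44821421, had 8.23, 7.32 and 6.80 TPM in TRF+DDP and 7.29, 6.86 and 7.12 TPM in TRF. It had 59.42, 54.69 and 56.77 TPM in DDP and 63.93, 60.99 and 67.23 TPM in CON. The 2 groups in restricted medium overlapped fully. The share left was 13.1% in TRF+DDP against DDP and 11.1% in TRF against CON.

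TPD52L1, on chromosome 6 from 125119049 to 125264407, had 2.62, 2.39 and 2.99 TPM in TRF+DDP and 4.08, 3.99 and 4.36 TPM in TRF. It had 37.67, 42.82 and 45.06 TPM in DDP and 49.49, 55.51 and 49.45 TPM in CON. In each medium every library with DDP was below every library without it. HDDC2 overlaps TPD52L1 on the other strand and averaged 52.5 to 66.1 TPM in the 4 groups. The sources used here do not say whether the authors' counting used strand, so reads shared by this pair are uncertain.

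RAB26, on chromosome 16 from 2140803 to 2154165, had 1.14, 1.20 and 1.34 TPM in TRF+DDP and 1.66, 1.48 and 1.89 TPM in TRF. Its levels were 30.13, 27.24 and 26.62 TPM in DDP and 25.19, 22.63 and 21.40 TPM in CON. Libraries with DDP were lower than those without in restricted medium and higher in normal medium. The mean was 22.8-fold lower in TRF+DDP than in DDP and 13.8-fold lower in TRF than in CON.

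GGT5 neighbours SUSD2 on chromosome 22, from 24219654 to 24245142 on the minus strand, with 30543 bases between the genes. It was at 1.51, 0.57 and 0.78 TPM in TRF+DDP and at 1.61, 1.88 and 2.00 TPM in TRF. It was at 17.83, 21.14 and 18.86 TPM in DDP and at 26.10, 24.81 and 25.78 TPM in CON. TRF+DDP replicate 1 stood above the other two of its group and close to TRF, and GGT5 had the widest spread relative to its mean there. Without TRF+DDP replicate 1, the log2 difference from DDP moved by 0.20, the largest shift that leaving out any library gave for any of the 20 falls.

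IMPA2, on chromosome 18 from 11981025 to 12030883, had 18.08, 16.28 and 16.74 TPM in TRF+DDP and 42.63, 38.02 and 41.37 TPM in TRF. It had 102.62, 100.11 and 102.42 TPM in DDP and 116.75, 115.96 and 116.39 TPM in CON. The 4 groups did not overlap, and TRF+DDP was the lowest. IMPA2 kept 16.7% of its DDP level in TRF+DDP and 35.0% of its CON level in TRF.

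C1QTNF6, on chromosome 22 from 37180167 to 37199385, followed IMPA2 closely, with 12.51, 13.64 and 13.05 TPM in TRF+DDP and 31.61, 30.17 and 29.24 TPM in TRF. It had 85.64, 79.77 and 85.64 TPM in DDP and 83.06, 81.89 and 84.73 TPM in CON, which overlapped. Its level was 15.6% of that in DDP for TRF+DDP and 36.5% of that in CON for TRF. An antisense RNA at the locus, ENSG00000235237, was low, at 0.143 TPM in TRF+DDP, 0.180 TPM in TRF, 0.857 TPM in DDP and 1.79 TPM in CON.

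CHP1, on chromosome 15 from 41230839 to 41281890, was the most abundant member in every group. It was at 57.65, 56.30 and 53.19 TPM in TRF+DDP, 70.08, 69.99 and 74.17 TPM in TRF, 224.31, 222.63 and 217.32 TPM in DDP, and 228.97, 227.86 and 232.58 TPM in CON. The share left was 25.2% in TRF+DDP against DDP and 31.1% in TRF against CON. The CHP1 pseudogenes averaged at most 0.10 TPM.

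PRSS23, on chromosome 11 from 86791059 to 86952910, was at 34.81, 35.57 and 33.38 TPM in TRF+DDP and at 49.59, 51.08 and 48.44 TPM in TRF. It was at 146.59, 150.64 and 148.62 TPM in DDP and at 125.07, 124.79 and 123.34 TPM in CON. DDP libraries were thus higher than CON libraries in normal medium, whereas TRF+DDP libraries were lower than TRF libraries. PRSS23 overlaps FZD4 on the other strand, which averaged at most 0.390 TPM.

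**Figure D1:**
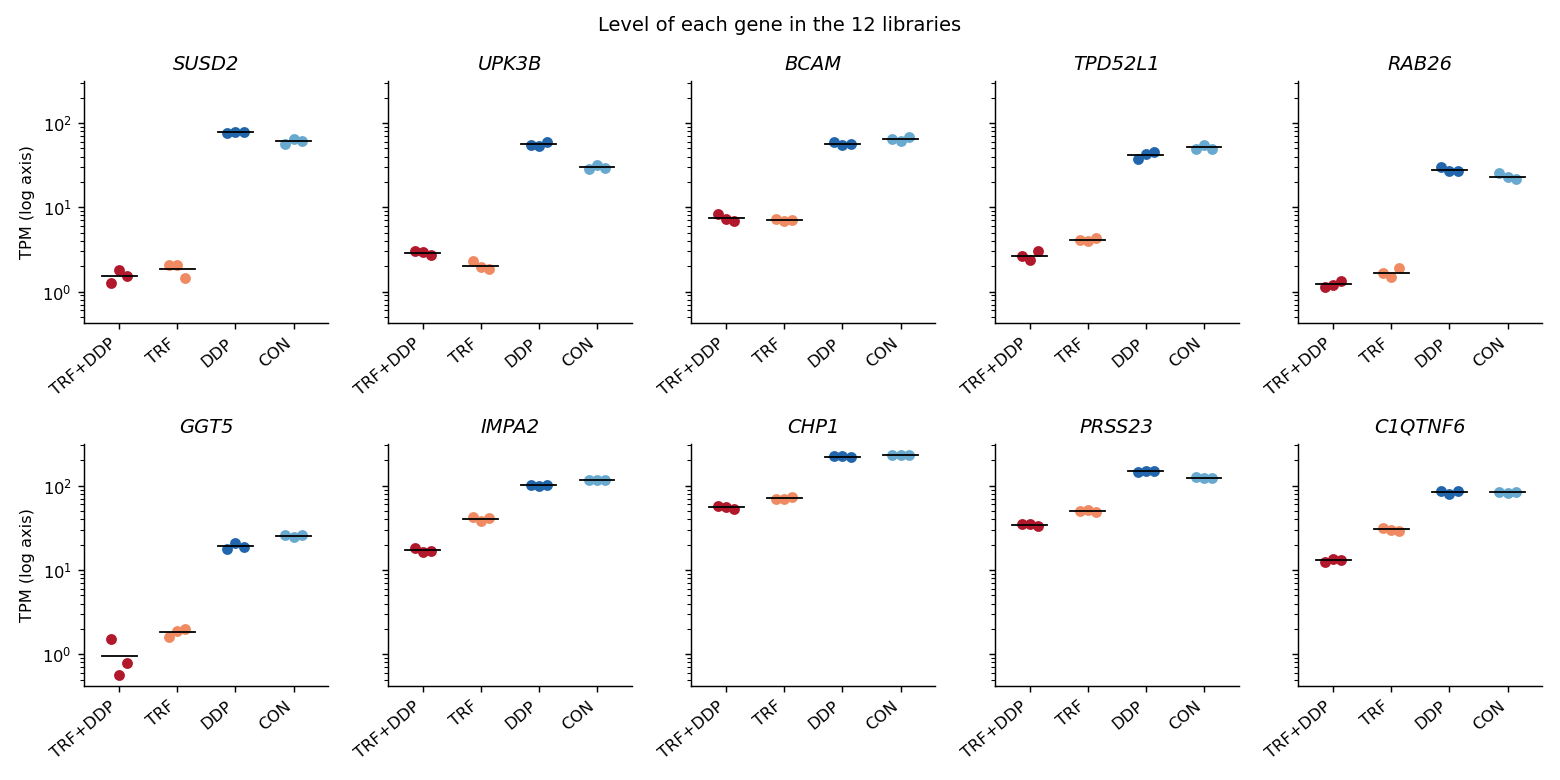
Level of each of the 10 genes in the 12 libraries, in TPM on a log axis. Points are libraries and black lines are group means, with the groups TRF+DDP, TRF, DDP and CON along the x axis. In every panel the 6 libraries in restricted medium lie below the 6 in normal medium, with SUSD2 at 1.28 to 2.05 TPM against 57.00 to 78.80 TPM.

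In both comparisons used to pick the genes, all 10 had no overlap between the groups, which was not counted over all tested genes. By a different measure, 21.4% of all tested genes were called lower in TRF+DDP against DDP and 17.1% in TRF against CON. A gene was called at an adjusted p under 0.05 (limma, Benjamini-Hochberg) and a fold over 1.5. Since these comparisons chose the members, nothing is read from the counts. SUSD2, UPK3B, BCAM, TPD52L1, RAB26 and GGT5 kept 1.99% to 13.1% of their DDP level in TRF+DDP and 3.03% to 11.1% of their CON level in TRF. IMPA2, CHP1, PRSS23 and C1QTNF6 kept 15.6% to 25.2% and 31.1% to 39.95%. This division was made after the values were seen. The weakest falls among the members were −1.97 for CHP1 in TRF+DDP against DDP and −1.31 for PRSS23 in TRF against CON, on the log2 scale. At least as large a fall in both comparisons was seen in 112 tested genes, and 53 of these had a normal-medium mean of at least 22.4 TPM, the lowest among the members. The 10 genes are thus a choice from a wider group, of which 43 are not members.

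**Figure D2:**
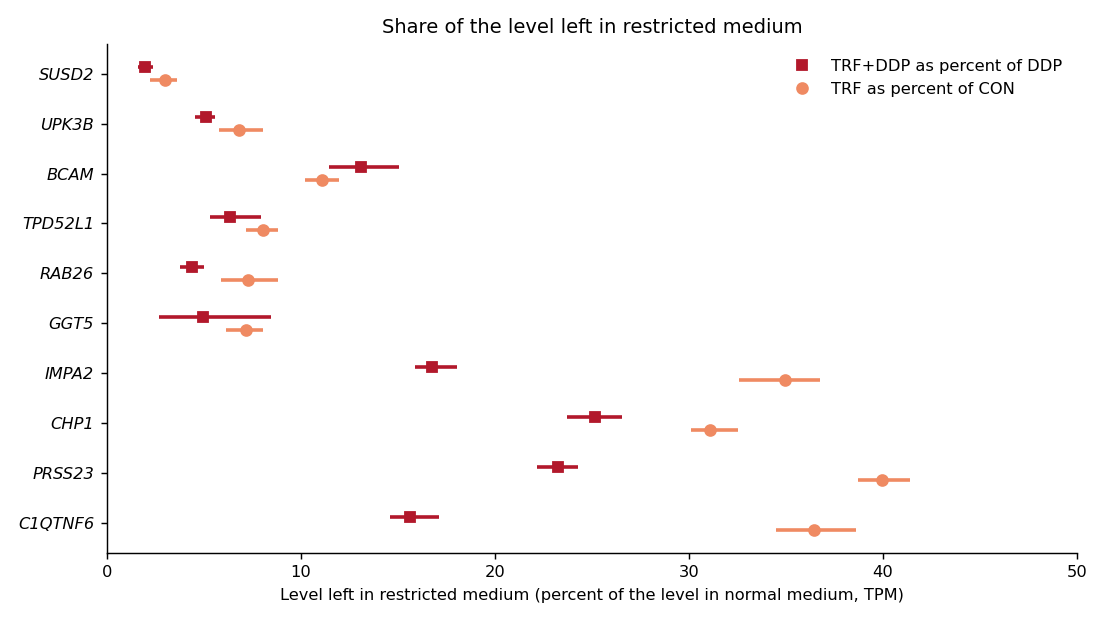
Share of each gene's level left in restricted medium, in percent of its level in normal medium (TPM), for TRF+DDP against DDP (squares) and TRF against CON (circles). Lines run from the lowest to the highest of the library pairs. BCAM is the only gene whose share is larger in TRF+DDP, 13.1% against 11.1%, and IMPA2 and C1QTNF6 show the widest separation between the 2 shares.

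The summed level of the 10 genes was 137 ± 4.25 TPM in TRF+DDP, 211 ± 2.89 TPM in TRF, 835 ± 3.81 TPM in DDP and 809 ± 3.999 TPM in CON (SD, n = 3 each). CHP1 led the order of levels in CON with 229.80 ± 2.47 TPM, followed by PRSS23 and IMPA2. BCAM and SUSD2, neighbours in this order at 64.1 ± 3.12 TPM and 60.9 ± 3.57 TPM in CON, overlapped there. In TRF+DDP the order was CHP1, PRSS23, IMPA2 and C1QTNF6, then BCAM, and GGT5 was last at 0.953 ± 0.493 TPM. Over the 12 libraries, pairs of members had a Pearson r of log2(TPM + 1) of 0.865 to 0.996 with a median of 0.978. These values are given as a description, since the members were chosen for one shared contrast.

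Did DDP change these genes further in restricted medium? IMPA2 and C1QTNF6 fell in TRF+DDP against TRF and none of the 10 rose, where 6.10% of all tested genes were called lower and 10.2% higher. IMPA2 differed by −1.21 ± 0.05 (log2 difference ± SE, adjusted p = 7.71e-09 by limma) and C1QTNF6 by −1.16 ± 0.05 (limma adjusted p = 8.65e-09). Their levels in TRF+DDP were 41.9% and 43.1% of those in TRF. These members had been chosen for falls that include the same TRF+DDP and TRF libraries, so the test is not fully independent of the choice.

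Without the fold threshold, 7 members were lower and 1 higher at an adjusted p under 0.05 in TRF+DDP against TRF, where 19.8% of all tested genes were lower and 28.1% higher. PRSS23 differed by −0.51 ± 0.04 (limma adjusted p = 5.85e-07), TPD52L1 by −0.49 ± 0.09 (5.60e-04) and CHP1 by −0.35 ± 0.04 (1.90e-05). GGT5 differed by −0.56 ± 0.14 (limma adjusted p = 0.00671), just short of the fold threshold. It passed that threshold at −0.76 without TRF+DDP replicate 1, at −0.62 without TRF replicate 1, at −0.67 under quantile normalization, at −0.64 under TMM-style scaling and at −0.97 with a pseudocount of 0.1. PRSS23 passed at −0.62 under TMM-style scaling and TPD52L1 at −0.62 with that pseudocount. RAB26 differed by −0.26 ± 0.09 (limma adjusted p = 0.0300). UPK3B was the exception, higher by 0.35 ± 0.08 (limma adjusted p = 0.00286). SUSD2 and BCAM did not pass the test, with differences of −0.16 ± 0.10 and 0.06 ± 0.07.

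In normal medium 1 member passed the call for DDP. UPK3B rose in DDP against CON by 0.89 ± 0.08 on the log2 scale (limma adjusted p = 2.85e-05), to 188% of its CON level, and was the 1 member called higher, where 1.86% of all tested genes were. None was called lower, where 0.159% of all tested genes were. At the adjusted p alone, 3 members were higher and 2 lower, where 10.0% and 2.17% of all tested genes were. The smaller differences that passed the adjusted p were 0.34 for SUSD2 and 0.25 for PRSS23, and −0.29 for TPD52L1 and −0.19 for IMPA2. C1QTNF6 differed by 0.01 ± 0.05 (limma adjusted p = 0.949) and CHP1 by −0.05 ± 0.04 (limma adjusted p = 0.433). The DDP and CON libraries also entered the falls that chose the members, so this test is not fully independent of the choice.

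**Figure D3:**
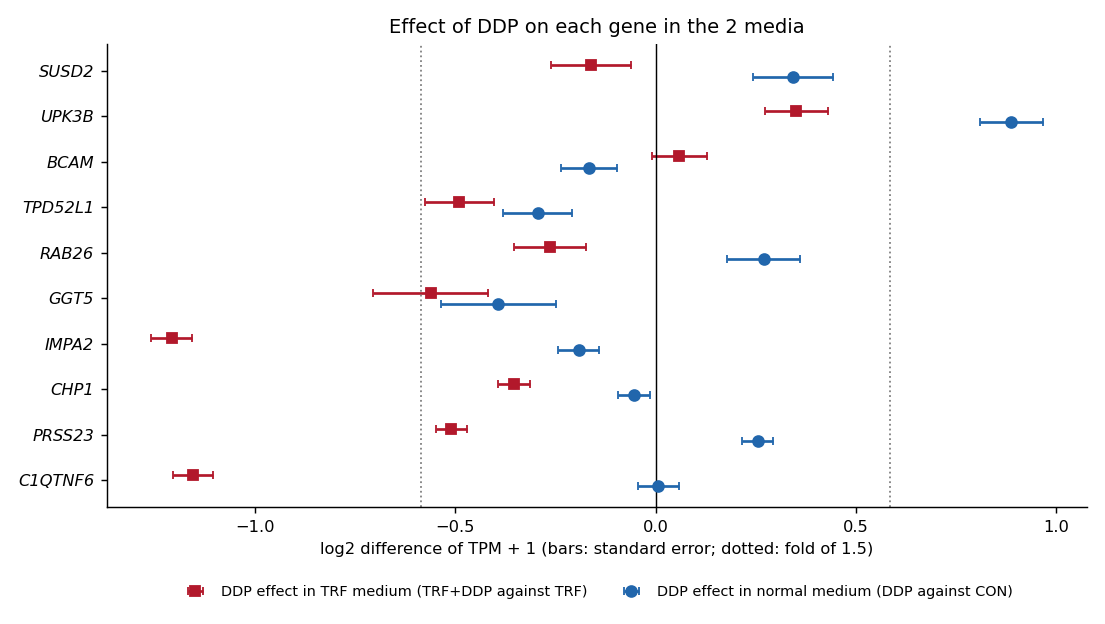
Effect of DDP on each gene as the log2 difference of TPM + 1, in restricted medium (TRF+DDP against TRF, squares) and in normal medium (DDP against CON, circles). Bars are standard errors and dotted lines mark a fold of 1.5. IMPA2 at −1.21, C1QTNF6 at −1.16 and UPK3B in normal medium at 0.89 lie beyond the dotted lines.

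The difference between these 2 effects of DDP was tested as the interaction of medium and drug. It was below 0 for 7 of the 10 genes at an adjusted p under 0.05, where 16.3% of all tested genes were lower and 13.5% higher. C1QTNF6 had the largest at −1.16 ± 0.07 (limma adjusted p = 9.74e-07), then IMPA2 at −1.02 ± 0.07 and PRSS23 at −0.77 ± 0.05 (both 2.13e-06). RAB26 and UPK3B had −0.53 and −0.54, SUSD2 had −0.50 and CHP1 had −0.30. SUSD2 missed the threshold without CON replicate 1 (limma adjusted p = 0.0507) and with no filter on low values (0.0535). BCAM (0.23), TPD52L1 (−0.20) and GGT5 (−0.17) did not pass, and BCAM passed without TRF+DDP replicate 3 (limma adjusted p = 0.0476). The interaction equals the difference between the 2 falls in restricted medium that chose the members. Neither its count nor its p-values are therefore independent of the choice.

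The epithelial identity genes fell in part. Of 40 epithelial identity genes, which exclude the 10 members, 16 had enough mRNA to be tested. In TRF+DDP against DDP, 8 fell and 1 rose, with a median log2 difference of −0.53, beside −0.10 for all tested genes. In TRF against CON, 6 fell and 2 rose, with a median of −0.38, beside −0.11 for all tested genes. Over all tested genes, 21.4% fell and 11.8% rose in TRF+DDP against DDP, and 17.1% fell and 8.41% rose in TRF against CON. These shares also stand beside the counts of the other gene lists below.

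ELF3, an epithelial transcription factor, was at 0.680 TPM in TRF+DDP and 0.487 TPM in TRF, against 14.3 TPM in DDP and 17.6 TPM in CON. Its log2 differences were −3.21 in TRF+DDP against DDP and −3.67 in TRF against CON. JUP, the junction plakoglobin of desmosomes and adherens junctions, fell, with log2 differences of −2.66 and −2.34, in the same comparisons. LLGL2, a basolateral polarity protein, fell, by log2 differences of −2.49 and −2.45, and SCNN1A, a subunit of the epithelial sodium channel, by −1.66 and −2.34.

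The 2 genes that rose in TRF were KRT7 and AP1M2, the epithelial clathrin adaptor subunit, named after their values were seen. AP1M2 differed by 0.72 in TRF+DDP against DDP and by 0.82 in TRF against CON, and KRT7 by 0.04, not called, and 0.60. For DDP, 1 of the 16 genes was called lower in TRF+DDP against TRF (SPINT2, a protease inhibitor of low level) and none higher. Over all tested genes, 6.10% were lower and 10.2% higher there. In DDP against CON 1 was called higher (KRT8) and none lower, where 1.86% and 0.159% of all tested genes were. Both single calls were lost under an alternative, SPINT2 without TRF replicate 2, without TRF+DDP replicate 2 or with no filter, and KRT8 under TMM-style scaling. Without the fold threshold, 5 were lower and 5 higher in TRF+DDP against TRF, where 19.8% and 28.1% of all tested genes were. In DDP against CON, 3 were then higher and none lower, where 10.0% and 2.17% were.

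**Figure D4:**
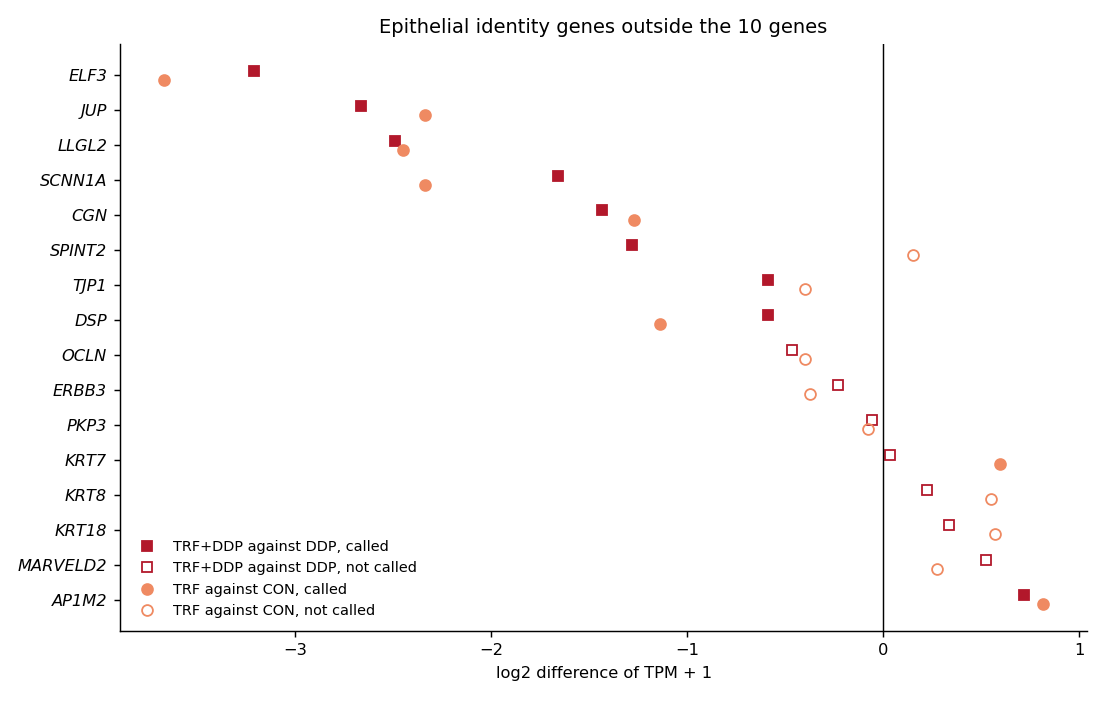
Log2 differences of TPM + 1 for the 16 tested epithelial identity genes, in TRF+DDP against DDP (squares) and TRF against CON (circles). Filled symbols passed the adjusted p and the fold threshold and open symbols did not. ELF3, JUP, LLGL2 and SCNN1A are the furthest to the left in TRF against CON, between −2.34 and −3.67, and AP1M2 lies to the right of 0 in both comparisons.

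Genes of the mesenchymal list moved in both directions. Of its 18 tested genes, 8 fell and 2 rose in TRF+DDP against DDP, and 7 fell and 4 rose in TRF against CON. TAGLN, an actin-binding protein of smooth muscle, rose by 2.17 in TRF+DDP against DDP and 3.28 in TRF against CON on the log2 scale, and SNAI2, a transcription factor of epithelial-mesenchymal transition, rose by 0.91 and 0.99. VIM, the vimentin gene, and CDH2, the neural cadherin, rose in TRF against CON by 0.72 and 0.69 and were not called in TRF+DDP against DDP (0.37 and −0.47). TGFBI, a secreted matrix protein, fell, by log2 differences of −1.84 and −1.54, as did S100A4 with −1.89 and −1.37. Of 3 tested alveolar and airway genes, 1 fell and none rose in TRF+DDP against DDP and none was called in TRF against CON. Of 3 tested mesothelial genes, 1 rose and 1 fell in TRF+DDP against DDP and 1 rose in TRF against CON. Markers of other cells moved with the medium too. The summed leukocyte list was 52.7 to 58.9 TPM in TRF+DDP, 33.3 to 37.0 TPM in TRF, 16.1 to 18.2 TPM in DDP and 9.71 to 10.9 TPM in CON. Most of it was CD68, a lysosomal protein of macrophages that other cells also carry, and the defining T-cell, B-cell and NK-cell genes CD3D, CD3E, MS4A1 and FCGR3A were at 0 in all 12 libraries. Of the 16 leukocyte genes 3 were tested, of which 2 rose in each comparison with normal medium, and 1 fell in TRF against CON. The fibroblast list, mostly FBLN1, summed to 73.2 to 81.8 TPM in TRF+DDP, 99.9 to 110.7 TPM in TRF, 218 to 244 TPM in DDP and 201 to 209 TPM in CON, with 2 of its 12 genes tested, of which 2 fell in TRF+DDP against DDP and 1 in TRF against CON. Endothelial genes summed to at most 2.27 TPM, and the 1 tested was not called. The part of these markers in the falls was not tested.

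Relatives and partners of the members showed how far each fall extended to its family. Among 13 tested laminins and laminin receptors, 7 fell and 1 rose in TRF+DDP against DDP, and 7 fell and 2 rose in TRF against CON. LAMA5, which encodes the laminin chain that BCAM binds, was at 123 TPM in TRF+DDP and 149 TPM in TRF, against 267 TPM in DDP and 272 TPM in CON, log2 differences of −1.12 and −0.86. LAMA3 and ITGB4, parts of laminin-332 and of its hemidesmosomal receptor, fell, by log2 differences of −2.06 and −1.93 in TRF+DDP against DDP. LAMB1 fell by 2.08 there. LAMB3, another chain of laminin-332, rose instead, by 1.44 in TRF+DDP against DDP and 1.10 in TRF against CON.

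Among uroplakins UPK1A, at most 2.59 TPM, fell, by log2 differences of −0.64 in TRF+DDP against DDP and −0.83 in TRF against CON. UPK3BL1, the close relative of UPK3B, was at 9.02 TPM in TRF+DDP, 9.87 TPM in TRF, 10.7 TPM in DDP and 10.3 TPM in CON and was not called. Of 2 tested relatives of TPD52L1, TPD52L2 rose by 0.68 in TRF against CON and neither was called in TRF+DDP against DDP. The sushi-domain list had 4 tested genes, of which SUSD6 rose by 0.91 in TRF+DDP against DDP and LGALS1, the galectin-1 partner of SUSD2, by 0.77 in TRF against CON. No sushi-domain relative was called lower in these comparisons.

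The secretory RAB list had 10 tested genes, of which 3 fell and 2 rose in TRF+DDP against DDP and 2 fell and 2 rose in TRF against CON. RAB3D, a GTPase of secretory granules, fell, by log2 differences of −1.59 and −1.08. PLEKHG5, an exchange factor that activates RAB26, rose by 1.32 and 1.11, to 23.9 TPM in TRF+DDP and 17.6 TPM in TRF, against 8.997 TPM in DDP and 7.62 TPM in CON. Among 8 tested genes of glutathione breakdown, 2 fell and 1 rose in TRF+DDP against DDP and 3 fell and 1 rose in TRF against CON. GGT1, the best known gamma-glutamyltransferase, differed by −0.33, not called, and −0.84, called. ANPEP, an aminopeptidase that cleaves the cysteinylglycine left by these enzymes, rose by 1.66 and 2.38.

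For inositol supply, 3 of 10 tested genes fell and 2 rose in TRF+DDP against DDP, and 2 fell and 1 rose in TRF against CON. IMPA1, the sister enzyme of IMPA2, was at 15.6 TPM in TRF+DDP and 10.3 TPM in TRF, against 9.22 TPM in DDP and 7.94 TPM in CON. It rose by 0.75 in TRF+DDP against DDP, where IMPA2 differed by −2.51. ISYNA1, which makes inositol phosphate from glucose 6-phosphate, fell, by log2 differences of −1.15 and −1.43 in the 2 comparisons.

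The list around CHP1 had 9 tested genes, with 2 lower and 1 higher in TRF+DDP against DDP and 1 lower in TRF against CON. TESC, a calcineurin B homolog like CHP1, fell, by log2 differences of −1.65 and −1.22. Of 4 tested serine proteases, 2 fell in TRF+DDP against DDP and 3 in TRF against CON, among them HTRA1 with log2 differences of −1.62 and −0.80. Of 4 tested C1q and TNF relatives, 2 fell in each comparison, such as C1QL1 with −0.85 and −0.69. No gene of these last 2 lists rose.

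Genes beside the members on the chromosome were compared as well. Of 36 tested flanking genes, 15 fell and 4 rose in TRF+DDP against DDP, where 21.4% of all tested genes fell and 11.8% rose. In TRF against CON, 10 fell and 4 rose, where 17.1% of all tested genes fell and 8.41% rose. Whether falls extend to neighbours was not tested. CABIN1, a calcineurin inhibitor gene 2630 bases from SUSD2, fell, by log2 differences of −1.66 and −1.11. ENSG00000285920, 2122 bases from CHP1, fell, by log2 differences of −1.63 and −1.58. DTX2, 4432 bases from UPK3B, and TRAF7 and PKD1, 1532 and 4904 bases from RAB26, were not called in either comparison.

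As a group the member transcripts were rich in G and C, with a median of 61.0% beside 49.3% for tested protein-coding genes, and 7 of the 10 lay above that median. TPD52L1 at 44.2%, PRSS23 at 44.8% and CHP1 at 47.0% were the exceptions. The genes spanned a median of 22354 bases, beside 33147 for tested protein-coding genes.

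The 10 other genes of at least 10 TPM with profiles most like the mean standardised profile of the members over the 12 libraries had a Pearson r of 0.9967 to 0.9988. The closest was ANTXR1, an anthrax toxin receptor, at 36.2 TPM in TRF+DDP, 48.3 TPM in TRF, 147 TPM in DDP and 147 TPM in CON. AKR1C3, SLC45A4, DAPK1 and JUP came next, and B4GALT5, S100A4, AIFM1 and SHMT1 were also among the 10. AIFM1 had the smallest differences of them, −0.996 in TRF+DDP against DDP and −0.858 in TRF against CON.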

How the data were processed

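The authors trimmed reads, aligned them with HISAT2, assembled transcripts with StringTie and deposited TPM per gene and library, with a mean for each group that was not used. The submitters' notes also name edgeR. The sources used here give no versions, genome build or strand setting.

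TPM was used as log2(TPM + 1) without further scaling. Genes averaging 1 TPM or more across the libraries entered 1 fit of the 4 groups (limma 3.58.1 in R 4.3.3, trend and robust variance), with Benjamini-Hochberg adjustment per comparison. Calls required an adjusted p below 0.05 together with a fold above 1.5, whereas for the interaction the p sufficed. The steps were tested on simulated data. Folds and percentages of a level are ratios of mean TPM.

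The members and gene lists were chosen with earlier results of these data known. Named genes were the members, up to 4 called genes per list with the largest change in restricted medium, called flanking genes, and the 10 most similar profiles. Others, such as defining cell markers, partners and relatives (LAMA5, UPK3BL1), overlapping genes and the nearest flanking genes (DTX2, TRAF7, PKD1), were named after their values were seen. Some genes that the rule names are not reported here. Positions are from GENCODE v29 (GRCh38) and promoters from RefSeq (GRCh38.p14). The alternatives tried were TMM-style scaling (trims 0.3 and 0.05), quantile normalization, a pseudocount of 0.1, no filter, no trend, only the groups compared, a replicate block, no fold threshold and each library left out. Python 3.11.15 with pandas 2.3.3, numpy 2.4.6 and matplotlib 3.10.9 was used for summaries and plots. Depth per library is unknown, so precision rests on 3 replicates.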

Additional observations from a re-analysis of the deposited data

Results flagged for a closer look

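The effect of DDP differed between the 2 media in 7 of the 10 genes (limma interaction, adjusted p under 0.05), all below 0. Over all tested genes, 16.3% were lower and 13.5% higher in this test. This test is the difference between the 2 falls that chose the members. Neither its count nor its p-values are therefore independent of the choice. The effect in restricted medium (TRF+DDP against TRF) minus that in normal medium (DDP against CON) was −0.50 for SUSD2, −0.54 for UPK3B, −0.53 for RAB26, −1.02 for IMPA2, −0.30 for CHP1, −0.77 for PRSS23 and −1.16 for C1QTNF6, on the log2 scale. In PRSS23 and RAB26 the 3 libraries with DDP were all below those without it in restricted medium and all above them in normal medium. In IMPA2 and CHP1 they were below in both media, and in UPK3B above in both. What lies behind these differences was not tested.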

How the results depend on the processing

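The falls of the 10 genes in restricted medium kept their direction under every alternative. Since these genes were picked for large falls, this is no test of the processing. The median of all tested genes in TRF against CON was −0.11, and 0.03 under TMM-style scaling. This shift turned the direction of none of the called list genes. It could hardly have done so, being smaller than the fold threshold that called genes must pass, so nothing is read from it. In TRF+DDP against TRF, the 2 members called lower became 4 under TMM-style scaling, 4 with a pseudocount of 0.1 and 7 without the fold threshold, and the 0 higher became 1 without it. In DDP against CON, members called higher numbered 3 and lower 2 without the fold threshold. The interaction, with 0 members higher, gave 0 to 1 with a library left out and had no fold threshold to drop and no fit of fewer groups. For epithelial identity genes, those higher in TRF against CON numbered 4 under TMM-style scaling, 1 under quantile normalization, 5 without the fold threshold and 1 to 4 with a library left out (4 without TRF replicate 2, 1 without CON replicate 2). In TRF+DDP against DDP those higher numbered 2 under TMM-style scaling, a pseudocount of 0.1 and quantile normalization, 4 without the fold threshold and 1 to 2 with a library left out (2 without DDP replicate 1). In TRF+DDP against TRF those higher numbered 2 with a pseudocount of 0.1 and 5 without the fold threshold, and those lower 0 without the filter, 5 without the fold threshold and 0 to 1 with a library left out. In DDP against CON those higher numbered 0 under TMM-style scaling and 3 without the fold threshold. Flanking genes in TRF against CON numbered 7 higher and 19 lower without the fold threshold. The causes were not tested, apart from the wider call without a threshold.

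Replicate numbers did not pair the libraries, since deviations of same-numbered libraries correlated at −0.04 to 0.05. With the replicate number as a block, 2 members were lower in TRF+DDP against TRF, 1 was higher in DDP against CON and 7 were lower in the interaction, as without the block.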
